A study of Gallus gallus with 12 samples.

Results

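The ADAM and ADAMTS genes were the 31 rows, of 12470 named genes in the table, whose symbol begins with ADAM. They comprised 11 ADAM, 17 ADAMTS and 3 ADAMTS-like (ADAMTSL) genes, and no ADAMDEC row was present among them. Messenger RNA had been sequenced from ovarian follicle tissue of 6 laying hens aged 12 months, whose breed and any treatment are not given in the sources used here. Each hen gave 1 Pre-recruitment follicle and 1 Pre-ovulatory F5 follicle, so each stage held 6 libraries from the same 6 birds, which are named here by bird number. Recruitment is the step by which a small follicle enters the graded series of yolk-filling follicles, and F5 is a position in that series. Named genes received 20628640 to 29082988 counts per library before recruitment and 28044247 to 40887647 in F5 follicles, and the 31 genes together took 0.166% to 0.196% and 0.167% to 0.233% of them.

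ADAM proteins are membrane-anchored metalloproteases with a disintegrin domain, best known for cutting growth factors, receptors and adhesion molecules off the cell surface. ADAMTS proteases are their secreted relatives, carry thrombospondin repeats and act on the extracellular matrix, where they trim procollagen and cleave large proteoglycans such as versican and aggrecan. ADAMTS-like proteins share the repeats but lack the protease domain. In the mouse ovary ADAMTS1 is a target of the progesterone receptor and is needed for normal ovulation. These roles come largely from mammals.

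Members of the family moved in both directions between the stages. ADAM12, ADAM8, ADAMTS17, ADAMTSL2, ADAMTS6, ADAMTS3, ADAMTS2, ADAMTS10 and ADAMTS4 were each at least 2-fold higher in F5 follicles, and ADAMTS18 was at least 2-fold lower, under the scaling used here. All 31 genes passed the low-count filter and were tested with edgeR's quasi-likelihood test, and 19 (61.3%) had a Benjamini-Hochberg adjusted p under 0.05, against 65.5% of all 11195 genes tested. Of the 31, 13 rose (41.9%, against 32.9% of all genes) and 6 fell (19.4%, against 32.6%). These shares of all genes are also the background for the counts by role below, each of which rests on few genes. With a change of at least 2-fold, 9 rose (29%, against 4.69%) and 1 fell (3.23%, against 9.82%). Under library totals these counts were 6 and 3 (against 2.52% and 13.8% of all genes), as ADAMTS2, ADAMTS10 and ADAMTS4 went under 2-fold and ADAMTS15 (log2 change -1.004) and ADAMTS20 (-1.15) joined ADAMTS18 (-1.55). The count at least 2-fold lower was 0 without bird 5826 or 5835. It was 2 without bird 5802 or 5817, without the Pre-recruitment sample of 5802, 5810 or 5817, and without the F5 sample of 5802 or 5826. The median log2 change was 0.12 over the 31 genes and 0.02 over all genes tested, and the median size of the change regardless of sign was 0.65 and 0.39. The 6 F5 libraries lay wholly above or below the 6 Pre-recruitment libraries for 11 genes (35.5%, against 43.5%). In 6 of 6 birds the difference had 1 sign for 18 genes (58.1%, against 62.1%).

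Calls, and the signs of small changes, depend on how libraries are scaled. Those of the 31 genes whose sign turned under library totals had not passed the test. Values are given as CPM, the count of a gene after libraries are brought to a common total, with the trimmed mean of M-values (TMM) as the scaling. Under library totals alone the median log2 change of all genes went from 0.02 to -0.21 and that of the 31 genes from 0.12 to -0.12, and the calls went from 13 higher and 6 lower (68.4% higher) to 12 higher and 10 lower (54.5% higher). Directions are therefore relative to the typical gene. CPM is not divided by transcript length, so tests compare libraries and not genes. Where genes are called abundant or scarce, or are summed, this refers to CPM and is affected by transcript length.

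**Figure D1:**
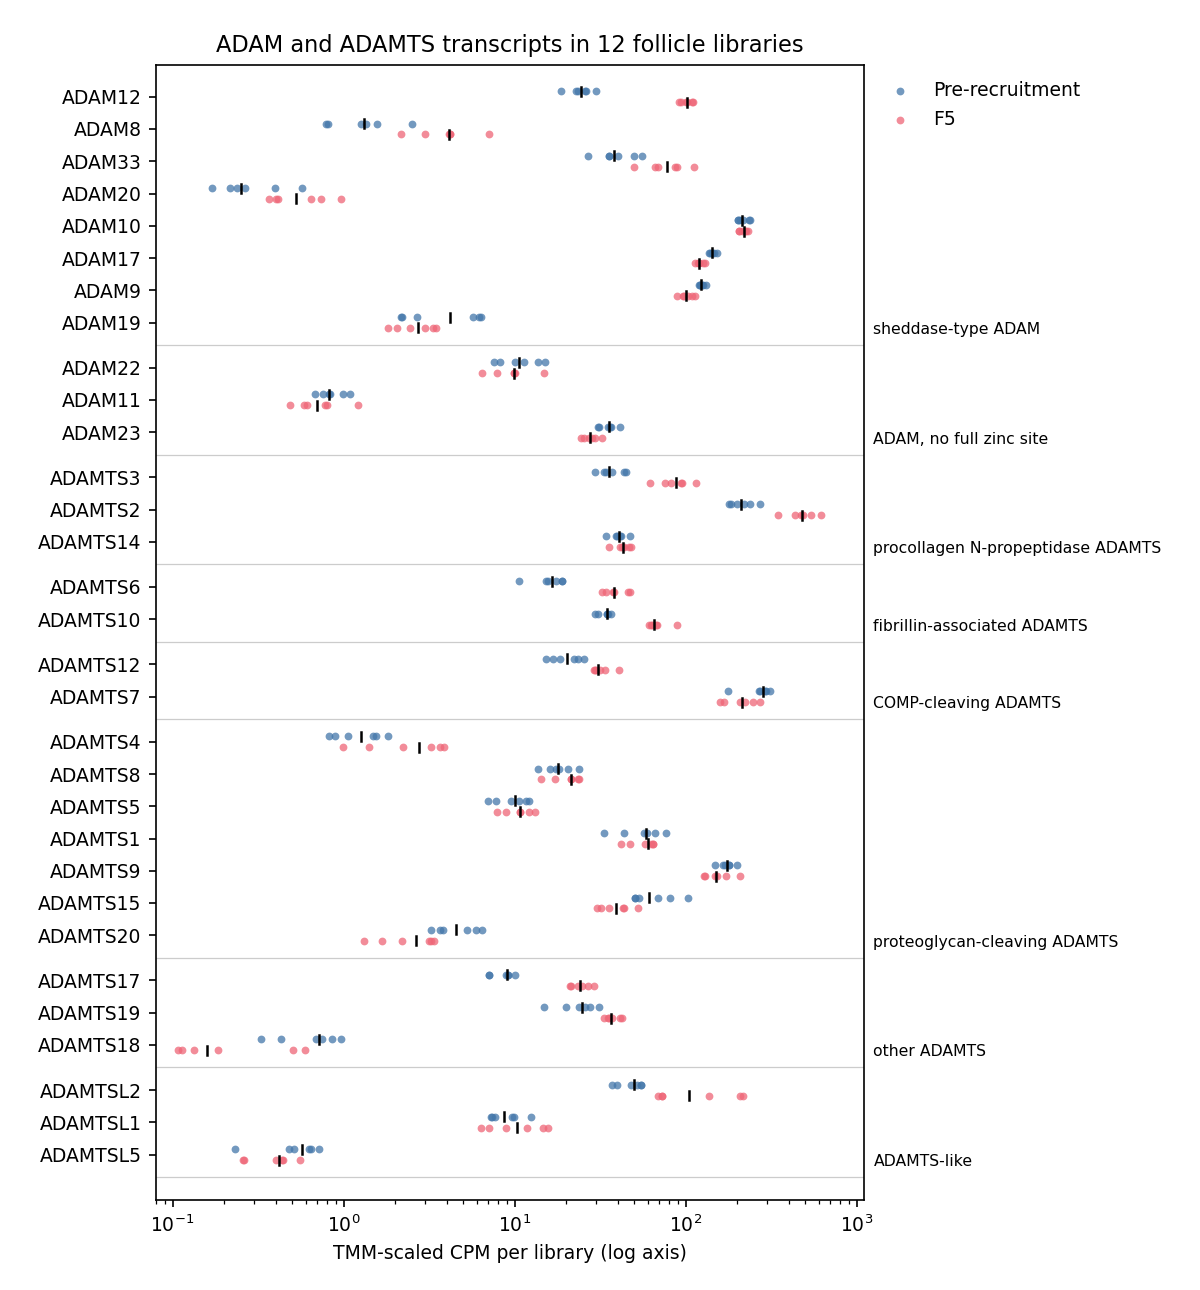
TMM-scaled CPM (log axis) of each of the 31 genes in the 12 libraries, grouped by role. Points are libraries, blue for Pre-recruitment and red for F5, and black ticks are stage medians. ADAM12 separates most clearly, from at most 30.0 CPM before recruitment to at least 91.2 CPM in F5 follicles, whereas the libraries of ADAM10 overlap throughout.

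Markers of several cell types differed between the same libraries. Smooth muscle markers were higher in F5 follicles for 11 of 12 genes and lower for none, with a summed level of 3866 to 8860 CPM before recruitment and 15312 to 31159 CPM in F5 follicles (most abundant ACTA2 and TAGLN). Fibroblast markers were higher for 7 of 8 (COL1A1 and COL3A1 most abundant), with sums of 15532 to 22973 and 29424 to 39361 CPM. These sums are weighted toward COL1A1, which averaged 5768 and 10623 CPM, and COL3A1, at 11883 and 20136 CPM. They therefore follow collagen transcripts and need not follow the number of fibroblasts. PDGFRB, named after its values were seen, averaged 78.0 and 81.5 CPM and did not pass. Granulosa markers were lower for 8 of 12 and higher for 2, with sums of 2342 to 3077 and 1396 to 2046 CPM. The most abundant were AMH, which was lower, and CYP11A1, which did not pass the test. Oocyte markers were lower for 10 of 13 and higher for none, and their sums overlapped at 977 to 1221 and 482 to 1436 CPM. The sums are weighted toward ZP3 and ZP1, the most abundant, which did not pass the test. Which cells the ZP3 and ZP1 transcripts came from was not measured, so the sums need not follow the oocyte. Before recruitment and in F5 follicles ZP3 averaged 587 and 815 CPM and ZP1 194 and 128 CPM. ZP2 averaged 196 and 11.9 CPM and BMP15 23.6 and 2.18 CPM, and both were named after their values were seen. Theca markers had 3 higher and 1 lower of 7, endothelial markers 4 higher and 2 lower of 9, and leukocyte markers 1 higher and 1 lower of 10. Erythrocyte and thrombocyte markers had 2 higher and none lower of 5. The most abundant were CYP19A1 and CYP17A1 for theca and VWF and CDH5 for endothelium. For leukocytes they were CD74 and CSF1R, and for erythrocytes and thrombocytes HBA1 and HBBA. Of these most abundant genes, CYP17A1 was lower, CDH5 was higher and the others did not pass. No marker in the table was at 0 in every library, a weak check that a single count would pass. The granulosa, theca and oocyte lists each had counts in every library, but which cells those transcripts came from was not measured. In bulk tissue, fewer cells of a type and less RNA per cell cannot be told apart, and the part of these shifts in the results given here was not tested. Where marker counts are repeated beside genes or lists below, no relation between them was tested. The theca and endothelial lists, with calls in both directions, are not repeated there.

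Among the ADAM genes with the zinc-binding protease site, ADAM12 changed most. ADAM12, a protease of mesenchymal and muscle precursor cells that releases heparin-binding EGF and cleaves IGF-binding proteins, measured 18.5 CPM in the lowest, 24.5 at the median and 30.0 in the highest Pre-recruitment library. In F5 follicles it measured 91.2, 101 and 111 CPM. The stages did not overlap, and the F5 libraries lay close together, with a coefficient of variation of 7.65% against 15.7% before recruitment. F5 exceeded Pre-recruitment in each of 6 birds, by 4.14-fold in the fit (log2 change 2.05, SE 0.10, edgeR adjusted p = 4.37e-09). Leaving out any 1 library or bird moved the log2 change between 1.96 and 2.10, and under library totals it was 1.82. In the same comparison 11 of 12 smooth muscle and 7 of 8 fibroblast markers were higher, and their relation to ADAM12 was not tested.

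ADAM33 and ADAM8 also rose, from different ranges. ADAM33, which in humans is expressed by smooth muscle cells and fibroblasts and is linked to asthma, ran from 26.8 to 55.7 CPM (median 38) before recruitment and from 49.5 to 112 CPM (median 77.6) in F5 follicles. Its stages overlapped at the edge, because the F5 library of bird 5802 (49.5 CPM) lay below the Pre-recruitment library of bird 5835 (55.7 CPM), yet F5 was higher within each of the 6 birds (1.94-fold, log2 change 0.95, SE 0.20, adjusted p = 8.85e-04). ADAM8, a protease best known from leukocytes, was scarce, at 0.792 to 2.49 CPM (median 1.31; 19 to 73 counts) before recruitment and 2.17 to 7.06 CPM (median 4.15; 65 to 262 counts) in F5 follicles. It was 2.97-fold higher (log2 change 1.57, SE 0.32, adjusted p = 6.21e-04), again in 6 of 6 birds. Of 10 leukocyte markers 1 was higher and 1 lower, and the list summed to 555 to 1005 CPM before recruitment and 582 to 853 CPM in F5 follicles. The sum is weighted toward CD74, which averaged 468 and 407 CPM, and its relation to ADAM8 was not tested.

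The broadly expressed sheddases changed little. ADAM17, the enzyme that releases tumour necrosis factor and several EGF receptor ligands, measured 137 to 153 CPM (median 142) before recruitment and 114 to 129 CPM (median 120) in F5 follicles. ADAM9, another membrane sheddase, measured 119 to 132 CPM (median 123) and 89.2 to 113 CPM (median 100). Both fell by small amounts with no overlap between the stages and in 6 of 6 birds, ADAM17 1.18-fold (log2 change -0.24, SE 0.05, adjusted p = 6.05e-04) and ADAM9 1.22-fold (log2 change -0.29, SE 0.06, adjusted p = 6.56e-04). ADAM10, the main sheddase of Notch receptors and of N-cadherin, measured 201 to 238 CPM (median 212) before recruitment and 204 to 231 CPM (median 217) in F5 follicles. Its log2 change was 0.0016 (SE 0.06, adjusted p = 0.983) and F5 was higher in 3 of 6 birds, but under library totals it was lower in F5 follicles (log2 change -0.23, adjusted p = 0.00184). ADAM19, a sheddase of neuregulin, did not pass, at 2.16 to 6.33 CPM (median 4.17) and 1.80 to 3.48 CPM (median 2.71; log2 change -0.65, SE 0.31, adjusted p = 0.0798). It passed as lower under library totals (adjusted p = 0.0307), when hen 5802 (0.0442) or 5817 (0.0465) was dropped, and when only the Pre-recruitment sample of 5802 (0.0324) or 5810 (0.0308) was dropped.

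ADAM20 was near the limit of detection, with 4 to 16 counts per library before recruitment and 10 to 36 in F5 follicles. Its levels were 0.170 to 0.573 CPM (median 0.252) and 0.368 to 0.969 CPM (median 0.528), higher in 5 of 6 birds and lower in bird 5826. The 1.90-fold rise (log2 change 0.92, SE 0.35, adjusted p = 0.0304) ended under library totals (adjusted p = 0.0967). Dropping hen 5802 (0.0522), 5810 (0.0904) or 5840 (0.108) had the same effect. So did dropping a single Pre-recruitment sample, from 5802 (0.0706), 5810 (0.0686), 5817 (0.0573) or 5840 (0.0705), or a single F5 sample, from 5810 (0.0507), 5835 (0.0860) or 5840 (0.0594).

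ADAM11, ADAM22 and ADAM23 are the members that in mammals lack a complete zinc site and act as receptors for LGI proteins at synapses and on nerve sheaths. ADAM23 measured 30.5 to 41.0 CPM (median 35.5) before recruitment and 24.4 to 32.5 CPM (median 27.7) in F5 follicles. The stages overlapped slightly, but F5 was lower within each of the 6 birds, a 1.26-fold fall (log2 change -0.33, SE 0.09, adjusted p = 0.00444). ADAM22 (7.52 to 15.1 and 6.42 to 14.8 CPM, adjusted p = 0.520) and ADAM11 (0.680 to 1.09 and 0.489 to 1.22 CPM, adjusted p = 0.462) did not pass the test.

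**Figure D2:**
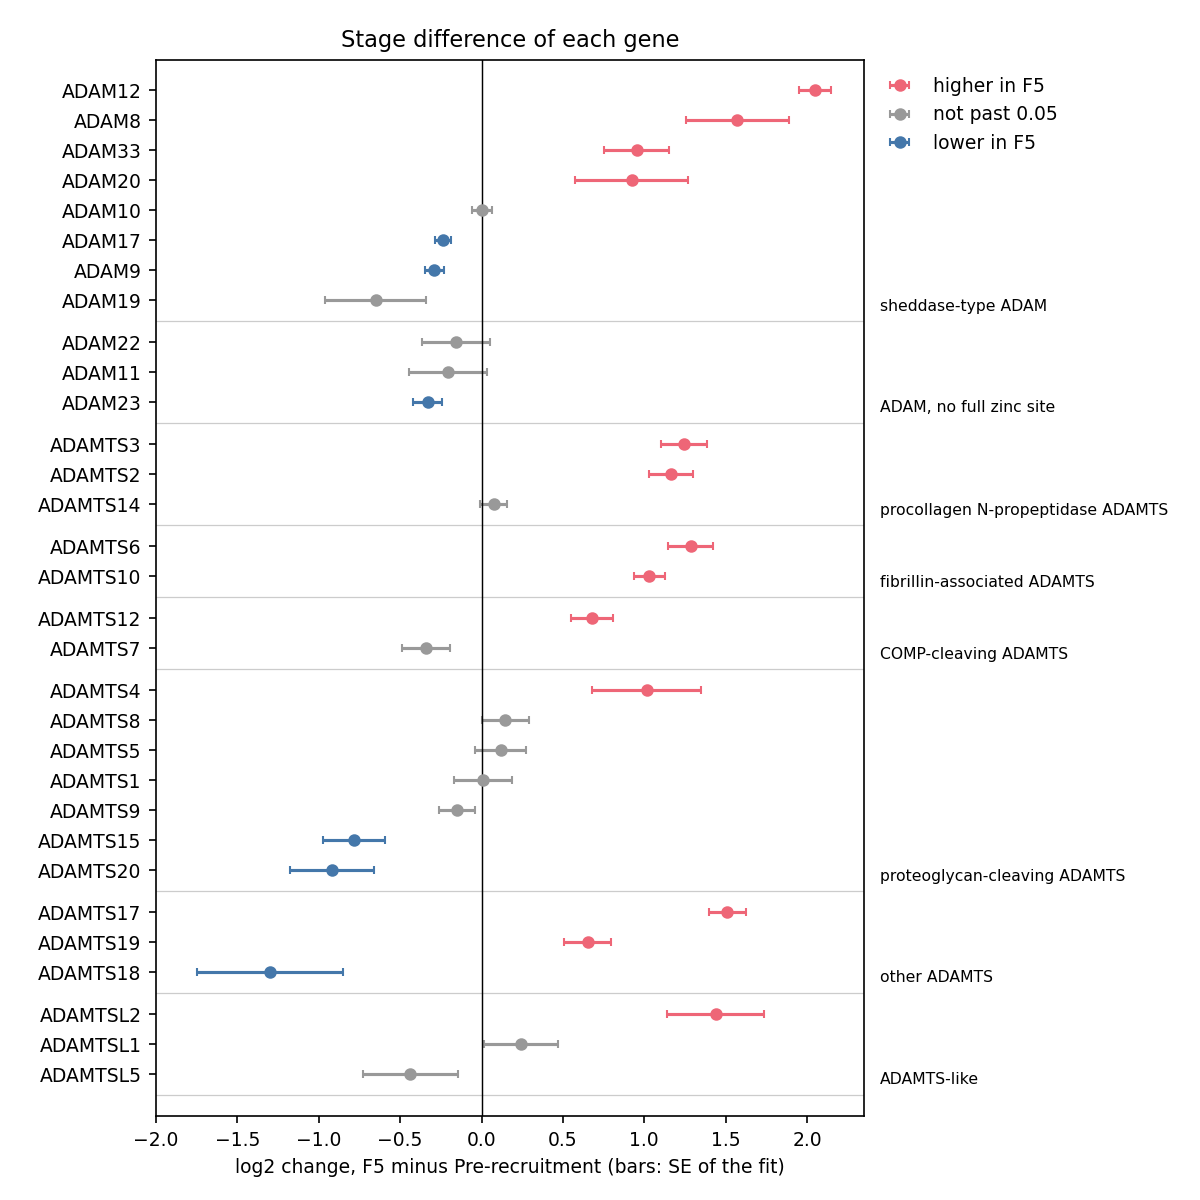
Log2 change of each of the 31 genes, F5 minus Pre-recruitment, with its standard error, grouped by role. Red genes were higher and blue genes lower in F5 follicles at an adjusted p under 0.05, and grey genes did not pass. The procollagen and fibrillin groups hold 4 of 5 genes called higher, against 32.9% of all genes, and the proteoglycan-cleaving group spreads to both sides of 0.

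ADAMTS2, ADAMTS3 and ADAMTS14 remove the amino-terminal propeptide of fibrillar procollagens, a step that lets collagen assemble into fibrils. Of these 3 genes, 2 rose and none fell. ADAMTS2, the principal enzyme for types I and III procollagen, measured 179 to 272 CPM (median 209) before recruitment and 346 to 620 CPM (median 478) in F5 follicles. ADAMTS3, which also activates the lymphatic growth factor VEGF-C, measured 29.3 to 44.5 CPM (median 35.4) and 62.0 to 115 CPM (median 88). For both, every F5 library exceeded every Pre-recruitment library, with rises of 2.24-fold for ADAMTS2 (log2 change 1.16, SE 0.14, adjusted p = 5.31e-06) and 2.37-fold for ADAMTS3 (log2 change 1.24, SE 0.14, adjusted p = 4.34e-06). ADAMTS14 measured 34.3 to 47.2 CPM (median 40.5) and 35.4 to 47.8 CPM (median 42.7), which overlap almost entirely (log2 change 0.07, SE 0.08, adjusted p = 0.457). Of 8 fibroblast markers, 7 were higher in the same comparison, and their relation to ADAMTS2 and ADAMTS3 was not tested.

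The list of procollagen chains and their processing genes also holds fibronectin (FN1) and leaves out the ADAMTS enzymes. Of its 11 tested genes, 8 were higher and 2 lower in F5 follicles (median log2 change 0.88). Over all genes tested 32.9% were higher and 32.6% lower, and the median was 0.02, which is the background for each list. COL1A1 and COL3A1, 2 of the 8, are also the most abundant of the fibroblast markers, of which 7 of 8 were higher. FN1, fibronectin, rose 3.11-fold from 1504 ± 269 to 4685 ± 333 CPM (n = 6, mean ± SD; edgeR adjusted p = 1.02e-07), and the chain COL5A2 rose 2.15-fold from 1040 ± 135 to 2238 ± 300 CPM (adjusted p = 1.19e-06). PCOLCE2, an enhancer of the enzymes that remove the other, carboxy-terminal propeptide, rose 9.43-fold from 3.63 ± 1.35 to 34.4 ± 4.73 CPM (adjusted p = 3.28e-08). Its relative PCOLCE, named after its values were seen, averaged 82.3 and 90.7 CPM and did not pass (edgeR adjusted p = 0.308). The tolloid-like proteases TLL1 and TLL2 were the 2 genes that fell, 2.77-fold from 23.3 ± 4.23 to 8.41 ± 1.28 CPM and 3.41-fold from 5.19 ± 2.18 to 1.53 ± 0.716 CPM (adjusted p = 5.99e-07 and 6.90e-04). BMP1, a protease of the same kind on the list, had no row among the named genes, so its level is not known here.

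ADAMTS6 and ADAMTS10 act at fibrillin microfibrils, the scaffold of elastic fibres, and human ADAMTS10 mutations cause Weill-Marchesani syndrome. Both rose. ADAMTS6 measured 10.6 to 18.9 CPM (median 16.5) before recruitment and 32.2 to 47.2 CPM (median 37.9) in F5 follicles, a 2.44-fold rise (log2 change 1.29, SE 0.14, adjusted p = 2.68e-06). ADAMTS10 measured 29.4 to 36.3 CPM (median 34.8) and 61.0 to 89.3 CPM (median 65.2), a 2.04-fold rise (log2 change 1.03, SE 0.09, adjusted p = 6.06e-07). The stages did not overlap for either gene. Between the same libraries 7 of 8 fibroblast and 11 of 12 smooth muscle markers were higher, and their relation to ADAMTS6 and ADAMTS10 was not tested.

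Of the 3 ADAMTS-like genes 1 rose and none fell, where 32.9% of all genes rose and 32.6% fell. ADAMTSL2, a secreted protein that binds fibrillin and a latent TGF-beta binding protein, measured 37.2 to 54.9 CPM (median 49.6) and 68.9 to 215 CPM (median 105). Its F5 libraries were spread out, with 68.9, 72.2 and 72.7 CPM in birds 5810, 5835 and 5840, 137 CPM in bird 5826, and 208 and 215 CPM in birds 5802 and 5817. The coefficient of variation was 53.3% in F5 follicles and 16.2% before recruitment, yet no F5 library reached down to the Pre-recruitment range (2.71-fold, log2 change 1.44, SE 0.30, adjusted p = 7.72e-04). ADAMTSL1, a related matrix protein, did not pass (7.31 to 12.4 and 6.36 to 15.6 CPM, adjusted p = 0.357), nor did the scarce ADAMTSL5 (7 to 20 and 7 to 15 counts, adjusted p = 0.205).

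In the list of fibrillin microfibril genes, 12 of 17 tested rose and none fell (median log2 change 0.95). Under library totals 9 were higher and 4 lower. Of the cell type markers, 11 of 12 for smooth muscle and 7 of 8 for fibroblasts were higher between the same libraries. FBN1 itself, fibrillin-1, rose 2.64-fold from 705 ± 85.8 to 1865 ± 217 CPM (SD, n = 6; adjusted p = 9.93e-08). LTBP1, a latent TGF-beta binding protein, rose 2.12-fold from 560 ± 95.3 to 1187 ± 239 CPM (adjusted p = 1.53e-05). FBN1 and LTBP1 were named after their values were seen. By the rule for named genes, the microfibril protein MFAP5 rose 4.79-fold from 58.4 ± 10.5 to 280 ± 20.1 CPM, the crosslinking enzyme LOX 4.35-fold from 17.5 ± 3.35 to 76.0 ± 12.9 CPM, and FBLN1, fibulin-1, 2.33-fold from 355 ± 40.2 to 828 ± 38.8 CPM. The edgeR adjusted p was between 4.01e-09 and 3.92e-08 for each of the 3. In the list 1 gene was lower without bird 5802 or its F5 library (PAPLN), without bird 5826 or its F5 library, or without the Pre-recruitment library of bird 5810 (FBLN7). PAPLN and FBLN7 were named after their values were seen.

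**Figure D3:**
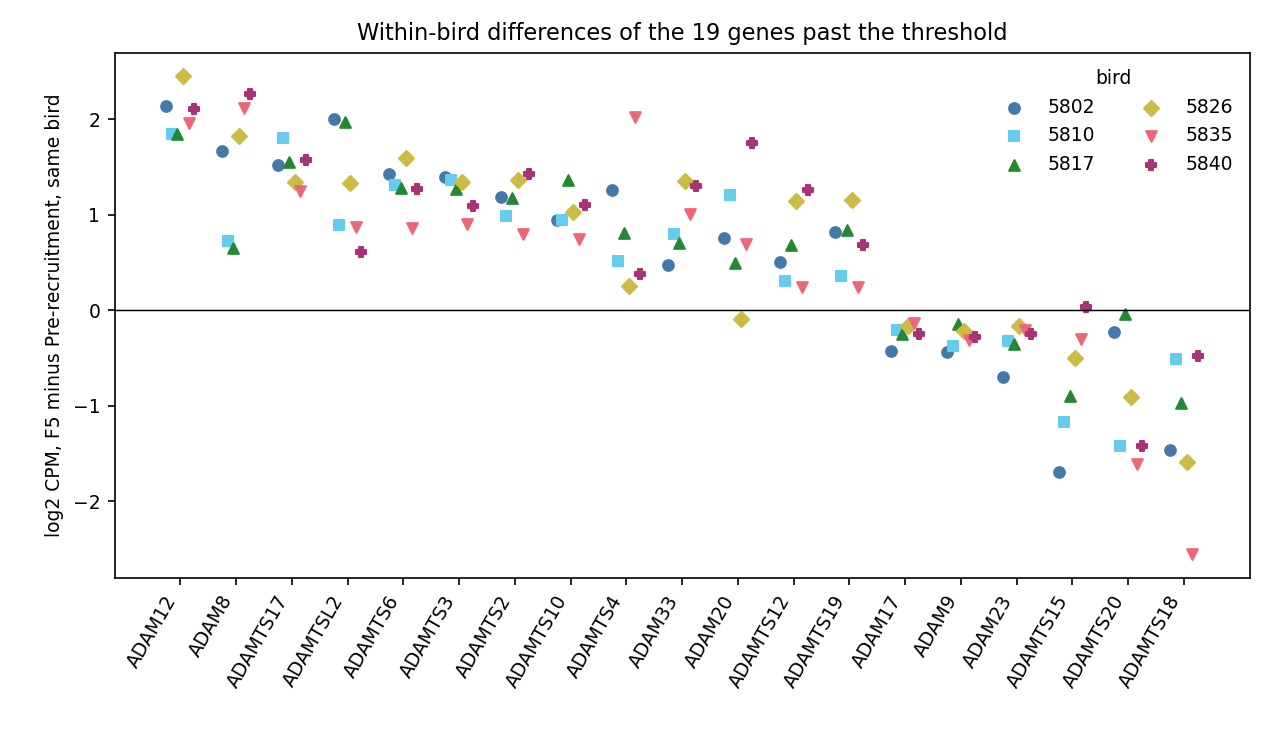
Difference in log2 CPM between the F5 and the Pre-recruitment follicle of the same bird, for the 19 genes past the threshold, ordered by fitted change. Each symbol is 1 bird. Most genes keep 1 sign in 6 of 6 birds, ADAM20 and ADAMTS15 do not, and bird 5835 is the lowest symbol for 7 of the 13 genes that rose.

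The enzymes that cleave proteoglycans had 1 higher, 2 lower and 4 not passing of 7 tested (median log2 change 0.01). Over all genes tested 32.9% were higher and 32.6% lower, so calls in both directions do not set this group apart. ADAMTS1, the versican-cleaving protease studied in mammalian ovulation, measured 33.2 to 76.7 CPM (median 58.2) before recruitment and 41.7 to 64.7 CPM (median 60.4) in F5 follicles. It was higher in F5 in 3 of 6 birds (log2 change 0.0072, SE 0.18, adjusted p = 0.975). ADAMTS9, which also cleaves versican, measured 149 to 200 CPM (median 173) and 128 to 208 CPM (median 150; log2 change -0.15, SE 0.11, adjusted p = 0.251). The F5 library of bird 5817 was the highest of all, and ADAMTS9 was lower in F5 follicles without it (log2 change -0.25, adjusted p = 0.0279), without both libraries of that bird (-0.26, 0.0319) and under library totals (-0.37, 0.0179). ADAMTS5 (6.99 to 12.1 and 7.85 to 13 CPM, adjusted p = 0.529) and ADAMTS8 (13.8 to 23.7 and 14.2 to 23.9 CPM, adjusted p = 0.393) did not pass.

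ADAMTS15 and ADAMTS20 fell. ADAMTS15, a versican- and aggrecan-cleaving enzyme, measured 50.3 to 104 CPM (median 60.9) before recruitment and 30.3 to 52.2 CPM (median 39.3) in F5 follicles. It fell in 5 of 6 birds, 1.72-fold overall (log2 change -0.78, SE 0.19, adjusted p = 0.00247), but by amounts from -1.69 log2 units in bird 5802 to 0.04 in bird 5840. ADAMTS20, which pigment cells need to survive in the mouse embryo, measured 3.23 to 6.40 CPM (median 4.51) and 1.32 to 3.39 CPM (median 2.66), a 1.89-fold fall in 6 of 6 birds (log2 change -0.92, SE 0.26, adjusted p = 0.00618). Between the same libraries 8 of 12 granulosa markers were lower and 2 higher, and 10 of 13 oocyte markers were lower (the abundant ZP3 and ZP1 did not pass). The relation of these markers to ADAMTS15 and ADAMTS20 was not tested. ADAMTS4, an aggrecanase induced by inflammation, was scarce and rose, from 0.825 to 1.82 CPM (median 1.27) to 0.994 to 3.85 CPM (median 2.74; 2.02-fold, log2 change 1.01, SE 0.33, adjusted p = 0.0155). Its stages overlapped, F5 was higher in 6 of 6 birds, and the call ended without bird 5835 (log2 change 0.78, adjusted p = 0.0789). Within the RefSeq gene table, ADAMTS1 lies next to ADAMTS5 and ADAMTS8 next to ADAMTS15. The neighbours ADAMTS1 and ADAMTS5 both did not pass, whereas ADAMTS15 fell and ADAMTS8 measured a log2 change of 0.15 (SE 0.15). The difference between neighbours was not tested.

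The proteoglycan and hyaluronan list had 6 higher and 3 lower of 14 tested (median log2 change 0.12). It holds substrates of these enzymes beside hyaluronan synthases and other matrix proteins. VCAN, versican, the large proteoglycan that ADAMTS proteases cleave, rose 2.63-fold from 503 ± 124 to 1324 ± 207 CPM (SD, n = 6; adjusted p = 4.41e-06), and the hyaluronan synthase HAS2 rose 2.54-fold from 10.3 ± 2.88 to 26.2 ± 9.18 CPM (adjusted p = 1.96e-04). Both were named after their values were seen, as was ACAN, aggrecan, which averaged 0.589 CPM before recruitment and 0.557 CPM in F5 follicles. HAPLN1, which links proteoglycans to hyaluronan, rose 3.24-fold from 31.0 ± 8.34 to 100.5 ± 10.2 CPM, the matrix adaptor MATN3 2.67-fold and the small proteoglycan DCN, also a fibroblast marker here, 1.97-fold to 1841 ± 194 CPM (adjusted p from 2.85e-07 to 1.24e-06). HAPLN3, a paralog of HAPLN1, fell 2.26-fold from 25.6 ± 6.55 to 11.3 ± 1.78 CPM and ITIH5, a hyaluronan-binding heavy chain, 1.61-fold (adjusted p = 2.35e-05 and 4.96e-05). MATN4 stood at 0.943 ± 0.801 and 0.400 ± 0.183 CPM, lower in 3 of 6 birds (adjusted p = 0.0467), and its call ended with the bird as a block (0.0628). Dropping hen 5810, 5826 or 5835, the Pre-recruitment sample of any of these hens, or the F5 sample of 5810, 5826, 5835 or 5840 likewise took it past 0.05 (adjusted p from 0.0540 to 0.211).

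ADAMTS7 and ADAMTS12, which cleave cartilage oligomeric matrix protein, had 1 higher, none lower and 1 that did not pass. ADAMTS12 measured 15.2 to 25.3 CPM (median 20.3) before recruitment and 29.1 to 40.4 CPM (median 30.8) in F5 follicles. Every F5 library was above every Pre-recruitment library (1.60-fold, log2 change 0.68, SE 0.13, adjusted p = 3.67e-04). Between these libraries 11 of 12 smooth muscle markers were higher, and their relation to ADAMTS12 was not tested. ADAMTS7 measured 177 to 311 CPM (median 281) and 159 to 272 CPM (median 214), lower in F5 in 6 of 6 birds (log2 change -0.34, SE 0.15, adjusted p = 0.0577). With the bird as a block it passed (log2 change -0.34, adjusted p = 0.00651). The Pre-recruitment library of bird 5840, at 177 CPM, lay far below the other 5, which ran from 269 to 311 CPM, and without it ADAMTS7 was lower in F5 follicles (log2 change -0.46, adjusted p = 0.00661). It also passed under library totals (adjusted p = 0.00496) and with DESeq2 (0.0388), when hen 5817 (0.0438) or 5840 (0.0180) was dropped, and when the F5 sample of 5802 (0.0453) or 5817 (0.0225) was dropped.

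Of the remaining ADAMTS17, ADAMTS18 and ADAMTS19, whose substrates are less well known, 2 rose and 1 fell. ADAMTS17, whose human mutations cause a Weill-Marchesani-like syndrome, measured 7.04 to 10.1 CPM (median 9.01) before recruitment and 21.1 to 29.0 CPM (median 24.1) in F5 follicles (2.85-fold, log2 change 1.51, SE 0.11, adjusted p = 1.07e-07). Its stages did not overlap. ADAMTS19, linked in humans to heart valve disease, measured 14.8 to 31.3 CPM (median 24.6) before recruitment and 33.2 to 42.4 CPM (median 36.3) in F5 follicles, with no overlap (1.57-fold higher, log2 change 0.65, SE 0.14, adjusted p = 0.00126). ADAMTS18 had 10 to 27 counts per library before recruitment and 3 to 16 in F5 follicles, or 0.330 to 0.966 CPM (median 0.722) and 0.108 to 0.591 CPM (median 0.159). The stages overlapped. The 2.46-fold fall was seen in 6 of 6 birds (log2 change -1.30, SE 0.45, adjusted p = 0.0201) and missed the threshold without bird 5826 (0.0593) or 5835 (0.0897).

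The follicle pairs of the 6 hens differed in how far these genes moved. Each hen gave 1 follicle per stage, so hen, follicle and library cannot be told apart. Over the 13 genes that rose, the median within-bird difference was 0.87 log2 units in bird 5835, 0.94 in 5810, 1.18 in 5817, 1.26 in 5802, 1.27 in 5840 and 1.35 in 5826. Bird 5835 had the smallest difference for 7 of the 13 (53.8%), ADAMTS2, ADAMTS3, ADAMTS6, ADAMTS10, ADAMTS12, ADAMTS17 and ADAMTS19, and bird 5817 for 2 (15.4%). Over all 3681 genes that rose, bird 5835 was the smallest for 14.3% and bird 5817 for 33.7%. Of the 6 genes that fell, bird 5802 showed the deepest fall for 4 (66.7%), ADAM9, ADAM17, ADAM23 and ADAMTS15, and of all 3652 genes that fell for 18.2%. These counts describe the 6 hens and were not tested, since genes of 1 library are not independent. Within a stage the 31 genes varied more between libraries than the typical gene. Their median coefficient of variation was 19.4% before recruitment and 19.3% in F5 follicles, against 11.7% and 12.3% over all genes tested. Genes were not matched for expression level in this comparison.

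Summed over roles, the procollagen N-propeptidases went from 258 to 357 CPM per library before recruitment to 454 to 783 CPM in F5 follicles, and ADAMTS6 and ADAMTS10 together from 41.2 to 55.1 CPM to 94.6 to 127 CPM. The 7 proteoglycan-cleaving enzymes summed to 278 to 401 CPM and 253 to 353 CPM, which overlap. The 31 genes together summed to 1455 to 1846 CPM and 1863 to 2409 CPM, which do not overlap under TMM. As shares of named counts, without TMM, they took 0.166% to 0.196% and 0.167% to 0.233%, which overlap. These sums are weighted toward genes with many counts and were not tested.

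Inhibitors of these proteases and the receptors that clear them had 5 higher and 2 lower of 10 tested (median log2 change 0.09). TIMP2, a tissue inhibitor of metalloproteinases, rose 2.40-fold from 487 ± 78.1 to 1170 ± 136 CPM (SD, n = 6; adjusted p = 5.30e-07). TIMP3, the matrix-bound inhibitor that acts on ADAM17 and on ADAMTS4 and ADAMTS5, rose 1.37-fold from 162 ± 9.71 to 222 ± 25.2 CPM (adjusted p = 1.15e-04). LRP1, the endocytic receptor that takes up several ADAMTS proteases, rose 1.41-fold from 539 ± 38.3 to 763 ± 92.5 CPM (adjusted p = 1.71e-04). Each of these 3 was higher in every F5 library than in any Pre-recruitment library. The scarce relatives LRP1B and LRP2 fell 2.77-fold and 2.44-fold (adjusted p = 7.92e-04 and 1.06e-04). Under library totals the list had 3 higher and 4 lower. Of the markers, 11 of 12 for smooth muscle and 7 of 8 for fibroblasts were higher.

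Genes that mature and traffic ADAM and ADAMTS proteins had 8 higher and 6 lower of 18 tested (median log2 change 0.08), where 32.9% and 32.6% of all genes were higher and lower. Under library totals 5 were higher and 8 lower. The iRhoms, which escort ADAM17 to the cell surface, went opposite ways. RHBDF1 rose 1.66-fold from 32.9 ± 2.14 to 54.8 ± 3.92 CPM (adjusted p = 4.08e-07), and RHBDF2 fell 1.40-fold from 19.1 ± 1.45 to 13.6 ± 1.25 CPM (adjusted p = 1.06e-04). Among the proprotein convertases, which remove the inhibitory prodomain, PCSK5 rose 1.87-fold from 190 ± 20.4 to 355 ± 48.1 CPM and PCSK7 1.61-fold, while FURIN, named after its values were seen, fell 1.43-fold from 123 ± 13.8 to 86.3 ± 8.81 CPM (adjusted p = 2.30e-06, 4.54e-06 and 1.10e-04). PACSIN3, an adaptor that binds the tail of ADAM12, fell 2.02-fold from 58.8 ± 9.60 to 29.1 ± 6.13 CPM, and MAD2L2, a mitotic and DNA repair protein reported to bind ADAM9, fell 1.47-fold (adjusted p = 2.88e-05 and 1.43e-06).

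Of 29 tested cell-surface proteins and ligands that ADAMs shed, 8 rose and 10 fell (median log2 change -0.05), shares close to the 32.9% and 32.6% of all genes. Under library totals 5 were higher and 16 lower. BTC, betacellulin, an EGF receptor ligand released by ADAM10, fell 23.6-fold from 38.2 ± 9.60 to 1.61 ± 0.705 CPM (SD, n = 6; adjusted p = 1.25e-08). NGFR, the low-affinity neurotrophin receptor shed by ADAM17, fell 9.37-fold from 67.8 ± 16.5 to 7.25 ± 1.99 CPM, and CDH2, N-cadherin, 1.84-fold (adjusted p = 4.02e-08 and 2.01e-05). The Notch ligand JAG1 rose 1.86-fold from 44.6 ± 4.85 to 83.0 ± 7.04 CPM, the macrophage growth factor CSF1 1.96-fold and the Notch ligand DLL1 1.5-fold (adjusted p from 5.33e-07 to 8.86e-05). Of the granulosa markers, which include CDH2 itself, 8 of 12 were lower and 2 higher. Of the oocyte markers 10 of 13 were lower, while their summed levels, weighted toward ZP3 and ZP1, overlapped.

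The LGI ligands of ADAM22 and ADAM23, listed with integrins that bind ADAM disintegrin domains, had 6 higher and 3 lower of 10 tested (median log2 change 0.78). LGI3 rose 2.74-fold from 30.7 ± 5.58 to 84.1 ± 15.4 CPM (adjusted p = 9.55e-07), while LGI2 fell 2.20-fold from 13.2 ± 4.68 to 6.03 ± 0.966 CPM and LGI1 1.40-fold (adjusted p = 3.54e-04 and 0.0127). The integrin chains ITGB1 and ITGB3 rose 2.16-fold to 1728 ± 202 CPM and 2.86-fold to 59.3 ± 10.4 CPM, and ITGA6, a laminin-binding chain, fell 2.32-fold from 88.0 ± 7.07 to 38.0 ± 4.87 CPM (adjusted p from 6.91e-08 to 1.06e-06). Of the smooth muscle markers 11 of 12 were higher, and of the granulosa markers 8 of 12 were lower and 2 higher.

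**Figure D4:**
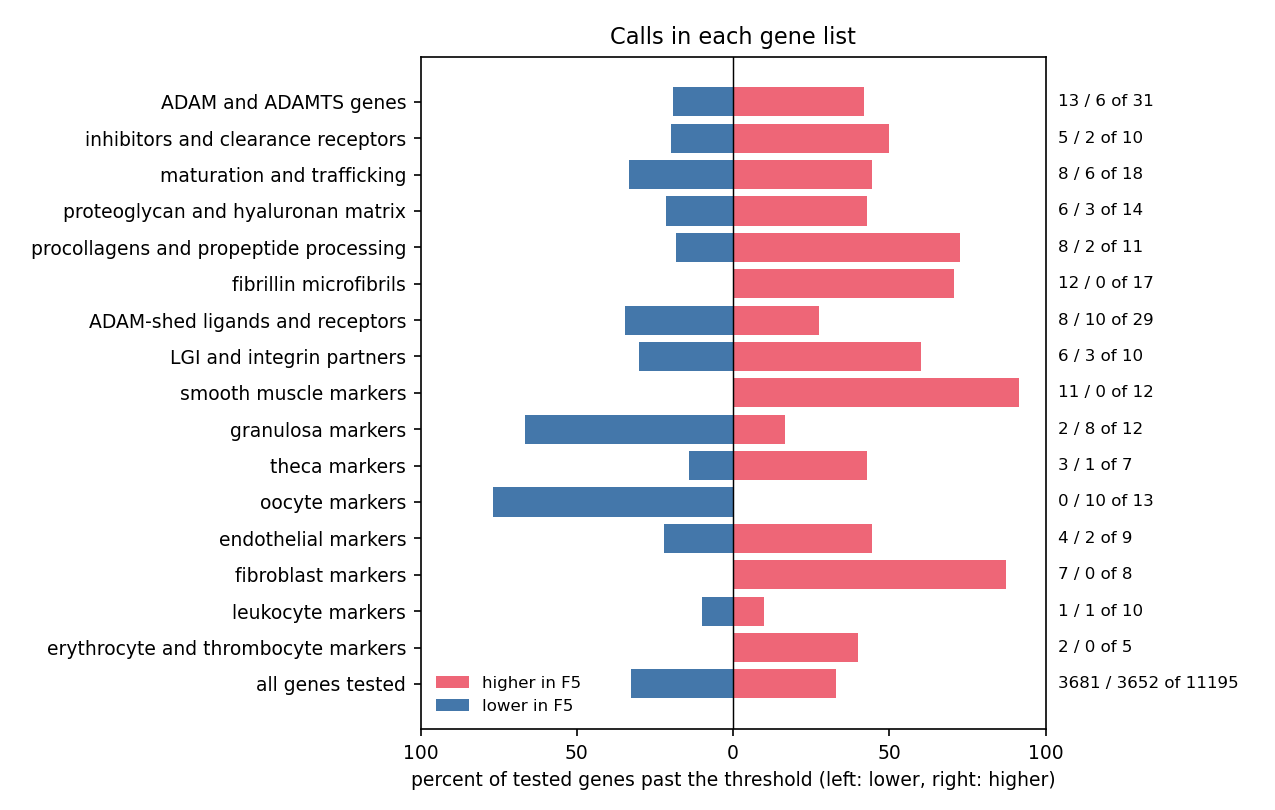
Share of tested genes past the threshold in each list, higher in F5 follicles to the right and lower to the left, with the counts (higher / lower of tested) beside each bar. The 31 ADAM and ADAMTS genes stand at 13 / 6 and all genes at 3681 / 3652 of 11195. No gene is lower in the fibrillin, smooth muscle, fibroblast, and erythrocyte and thrombocyte lists.

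kallisto divides reads of similar transcripts by estimation. RefSeq also lists ADAM9L, ADAM20L and ADAMTSL2L beside ADAM9, ADAM20 and ADAMTSL2. Whether reads were shared between such copies was not measured, so the levels of these 3 genes are uncertain to that extent.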

How the data were processed

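Poly-A RNA of 12 chicken follicle samples was sequenced as paired reads of 100 bp, per the labels' protocols. For each gene symbol the authors deposited estimated counts, not normalised, which the labels attribute to kallisto (expected counts). Its values were whole numbers, and rounding changed 0 of them. The submitters' processing notes name kallisto 0.44.0, DESeq2 1.38.3 and builds GRCg6a and galGal6, with no role given. A row without a gene name took 8.42% to 9.79% of counts before recruitment and 6.24% to 6.87% in F5 follicles and was left out. All 31 symbols matched a RefSeq gene table of build GRCg7b, used for names and neighbours only. RefSeq held 41 protein-coding symbols that begin with ADAM, and 10 of them had no row among the named genes.

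Counts were tested with edgeR 4.0.16 in R 4.3.3. Filtering was by filterByExpr with a minimum count of 10, scaling by TMM, and fitting by robust quasi-likelihood on all 11195 genes passing, with stage as the only term. Tests were two-sided with Benjamini-Hochberg adjustment over all of these genes at 0.05. Libraries were scaled to CPM, and log2 CPM used a prior count of 2. The standard error is the log2 change divided by the square root of F. The code was tested on simulated data, where it recovered 67.2% of 1.5-fold, 89.6% of 2-fold and 95.3% of 4-fold changes. Of its calls there 2.92% were false. Far fewer genes changed in the simulation than were called here, and it held no scaling shift between stages. It therefore does not test the scaling.

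Both stages come from the same birds by the labels' bird numbers. Deviations from stage means correlated across genes at 0.13 to 0.39 within birds and -0.30 to 0.30 between birds, and the bird block is an alternative. No library repeated another (smallest chi-square per degree of freedom 22.2). Other alternatives were library totals, DESeq2 1.42.0, other low-count filters, and each bird or library left out.

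The members and lists were chosen with earlier results of these data known. Family genes that passed and averaged 0 or more in log2 CPM are given in full. From each list of partner genes, up to 3 risers and 3 fallers with the smallest adjusted p are named. Cell type lists are represented by their most abundant genes. Any other partner or marker gene given with a value or a call is marked in the text as chosen with its values in view.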

Additional observations from a re-analysis of the deposited data

Results flagged for a closer look

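Each of the 31 genes was examined in each stage for a library far from the other 5, in 62 groups of 6 libraries, of which chance alone would mark about 1 in 20. In 2 groups a library stood apart. ADAMTS10 measured 89.3 CPM in the F5 library of bird 5817, and 61.0 to 67.9 CPM in the other F5 libraries. ADAMTS7 measured 176.8 CPM in the Pre-recruitment library of bird 5840, and 269 to 311 CPM in the other Pre-recruitment libraries.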

How the results depend on the processing

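Scaling by library totals was the alternative that moved counts most. The 31 genes then had 10 lower instead of 6 and 3 at least 2-fold lower instead of 1, inhibitors and clearance receptors 3 higher and 4 lower instead of 5 and 2, maturation and trafficking genes 5 higher instead of 8, fibrillin microfibril genes 4 lower instead of 0, and ADAM-shed proteins 5 higher and 16 lower instead of 8 and 10. Over all genes tested the calls went from 3681 higher and 3652 lower to 2071 and 5200. Log2 changes that turned negative under library totals were those of ADAM10 (-0.23), ADAMTS1 (-0.22), ADAMTS14 (-0.16), ADAMTS5 (-0.12) and ADAMTS8 (-0.079). ADAM10 also turned negative with DESeq2 (-0.0016) and with a filter of 1 CPM (-0.0047), which tested 27 of the 31 genes and left 0 of them at least 2-fold lower. With a bird or a library left out, ADAM10 ran from -0.040 to 0.032, ADAMTS1 from -0.13 to 0.097, the number of fibrillin genes lower from 0 to 1, and the number of the 31 genes at least 2-fold lower from 0 to 2 and higher from 7 to 10. The cause was not tested. With the bird as a block, the 31 genes had 13 higher and 7 lower. Among the 31 genes and the partner genes checked singly, the block changed the calls of ADAMTS7 (log2 change -0.34, adjusted p = 0.00651) and MATN4 (-1.06, 0.0628) and of no other. Genes named only as cell type markers, and ACAN and PCOLCE, were not checked singly under the alternatives. ADAM20, ADAMTS18 and ADAMTSL5 had few counts, which limits the precision of their values.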
